A study of Arabidopsis thaliana with 2 samples.

Results

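The genes described are the 7 Arabidopsis thaliana loci that make proline and break it down, chosen by their locus numbers from 23667 loci with counted reads. They are P5CS1 (AT2G39800), P5CS2 (AT3G55610), P5CR (AT5G14800), PDH1 (AT3G30775, also ERD5), PDH2 (AT5G38710), P5CDH (AT5G62530) and OAT (AT5G46180). Their expression was measured by RNA-seq in whole 12-day-old seedlings grown at 20 °C without treatment, in 1 library from FMO5-OE T1 seedlings and 1 library from Col-0 seedlings, the wild type. The FMO5-OE T1 seedlings were of the Col-0 accession and carried an overexpression that was read from the label as that of FMO GS-OX5, a flavin-containing monooxygenase. The sources used here do not say which promoter drives the transgene, what T1 means or whether lines were pooled. The study's title concerns trimethylamine oxide, a product of such enzymes, and tolerance of abiotic stress. With 1 library per genotype no difference has a replicate check, there is no test between genotypes, and the genotype cannot be told apart from any other difference between the 2 sets of seedlings.

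Proline is both a building block of protein and a solute that plants accumulate under drought, salt and cold. In the cytosol and plastid, P5CS phosphorylates and reduces glutamate to pyrroline-5-carboxylate, the step that limits synthesis, and P5CR reduces this intermediate to proline. In mitochondria, proline dehydrogenase (PDH) oxidises proline back to pyrroline-5-carboxylate and passes the electrons to the respiratory chain, and P5CDH returns the intermediate to glutamate. OAT enters the same mitochondrial intermediate from ornithine. In Arabidopsis, P5CS1 is known as the stress-induced and PDH1 as the stress-repressed, proline-induced member of their pairs.

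The FMO5-OE T1 library held 12.2 M counted reads and the Col-0 library 11.6 M. FMO GS-OX5 itself had 1379 reads in FMO5-OE T1 and 28 in Col-0, the direction that the label gives. Levels are in CPM, counts divided by a TMM-adjusted library total, so that 5 CPM stood for 63.1 reads in FMO5-OE T1 and 55.9 reads in Col-0. Folds are FMO5-OE T1 over Col-0 and carry an exact Clopper-Pearson 95% interval of the 2 counts, which covers counting error only and not the spread between plants. Of leaf photosynthesis markers 6 of 6 were lower in FMO5-OE T1 (5 of 6 with total-count CPM), with a summed level of 32873 CPM in FMO5-OE T1 and 39870 CPM in Col-0, and chloroplast transcripts took 1.91% of reads in FMO5-OE T1 and 2.37% in Col-0. Of 8 measured root markers 4 were higher and 4 lower, with a sum of 6172 CPM in FMO5-OE T1 and 5677 CPM in Col-0. Over the 18060 nuclear loci at 1 CPM or more, 49.7% were higher in FMO5-OE T1, a share not taken with total-count CPM. Seed markers were near 0, with CRA1 and CRC without reads and a sum of 1.35 CPM in FMO5-OE T1 and 1.07 CPM in Col-0. The part of tissue make-up in the values below was not tested, and in such bulk libraries fewer cells of a type and less RNA per cell cannot be told apart.

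The breakdown enzymes PDH1, PDH2 and P5CDH were each about as much higher in FMO5-OE T1, while the synthesis enzyme P5CS2 was slightly lower and OAT was level. PDH1 had 1.3 times its Col-0 level, PDH2 1.3 times and P5CDH 1.25 times, against 0.898 times for P5CS2 and 1.0 times for OAT. P5CS1 and P5CR had too few counted reads for a comparison, as described next. None of the 5 members that reached 5 CPM was at least 2-fold apart, a size that 0.737% of the 13019 nuclear loci at 5 CPM or more passed as higher and 0.346% as lower. The interval of the fold lay above 1 for 3 of the 5 and below 1 for 1 of the 5. Among all 13019 loci it lay above 1 for 17.4% and below 1 for 21.0%, so an interval on either side of 1 was common at this depth. With total-count CPM in place of TMM these shares were 28.4% above 1 and 12.5% below 1, and the 2-fold shares were 1.04% higher and 0.238% lower.

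**Figure D1:**
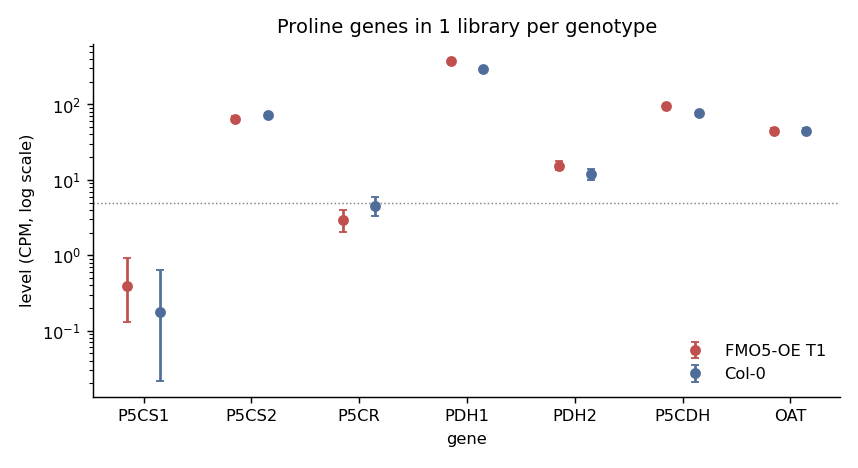
Level of each gene in CPM on a log axis, FMO5-OE T1 left of Col-0 within each gene, with exact Poisson 95% intervals of the single library (counting error only) and a dotted line at 5 CPM. PDH1 was at 378 CPM in FMO5-OE T1 and 291 CPM in Col-0, while P5CS1 and P5CR lay under the dotted line in both libraries.

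How much of each gene the counts could see differed widely. The deposited counts are headed as unique reads per transcript model, and reads that fit several listed models appear to be missing from them, which was not tested. Each file also states the percent of the model's length that reads covered. PDH1 was covered over 98.6% of model 1 in FMO5-OE T1 and 98.8% in Col-0, OAT over 91.9% in FMO5-OE T1 and 92.5% in Col-0, and PDH2 over 86.7% in FMO5-OE T1 and 83.5% in Col-0. These 3 genes have 1 listed model each and were read along nearly their whole length.

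**Figure D2:**
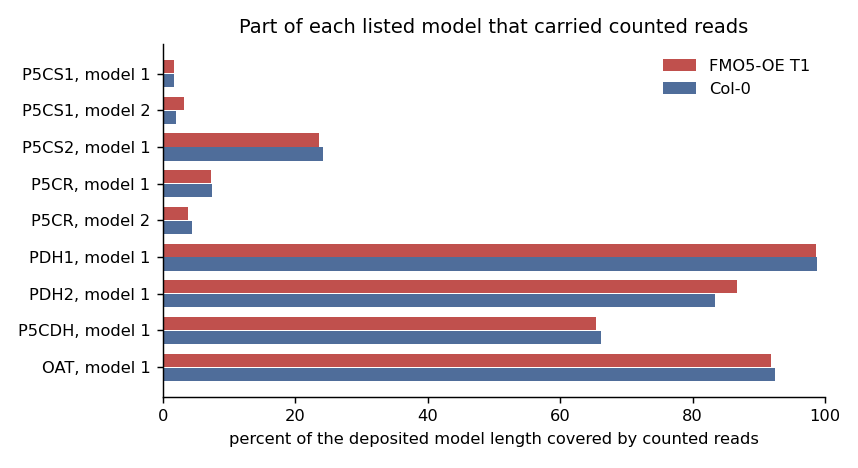
Percent of each listed transcript model's length covered by counted reads, as deposited, FMO5-OE T1 above Col-0 for each model. PDH1, PDH2 and OAT were covered over more than 80%, P5CS2 over 23.6% in FMO5-OE T1 and 24.1% in Col-0, and the models of P5CS1 and P5CR over less than 10%.

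P5CS1, which holds the regulated first step of stress-induced proline synthesis, had almost no counted reads in either library. The gene spans bases 16598072 to 16603319 of chromosome 2 (TAIR10.1, minus strand) and has 20 exons in model 1. Its 2 listed models had 1 and 4 reads in FMO5-OE T1 and 1 and 1 read in Col-0, or 0.396 CPM in FMO5-OE T1 and 0.179 CPM in Col-0 for the locus. The fold of 2.22 has an interval of 0.363 to 23.3 and so holds no direction. Only 3.57% of model 2 lies in stretches of 49 bases, the read length, that are absent from model 1, and 19.2% of model 1 lies in stretches absent from model 2. Whether the low count comes from few transcripts or from uncounted reads that fit both models was not tested, so the level of P5CS1 is not known from these counts.

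P5CS2, the housekeeping isoform that shares 85.2% of coding bases with P5CS1, was at nearly the same level in both libraries. On chromosome 3 it spans bases 20624020 to 20629295 (minus strand) in 20 exons. It had 817 reads in FMO5-OE T1 and 806 in Col-0, or 64.7 CPM in FMO5-OE T1 and 72.1 CPM in Col-0. The fold was 0.898 (0.814 to 0.991), just below 1. With total-count CPM it was 0.960 (0.870 to 1.06) and with equal nuclear totals the interval likewise held 1, so the side of 1 rests on the scaling. All reads were counted on model 1, over 599 bases in FMO5-OE T1 and 613 bases in Col-0 of its 2543. In the annotation 31.8% of the 2745 bases of model 1 lie outside model 2, which had no reads of its own in either library. By the same measure 4.60% of PDH1 model 1 was free of other models, while reads covered 98.6% of its listed length in FMO5-OE T1. Why reads covered so little of P5CS2 was not tested. Only 5 stretches of 49 bases in P5CS1 recur in P5CS2, so few reads could fit both genes.

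P5CR, which reduces pyrroline-5-carboxylate to proline, was also seen through a narrow window. On chromosome 5 it spans bases 4785960 to 4787996 (minus strand) in 7 exons. It had 37 reads in FMO5-OE T1 and 50 in Col-0, or 2.93 CPM in FMO5-OE T1 and 4.47 CPM in Col-0, and a fold of 0.656 (0.417 to 1.02). Of these, 36 reads in FMO5-OE T1 covered 93 bases of model 1 and 48 reads in Col-0 covered 94 bases. The interval holds 1, so a difference in P5CR was not detectable with the few reads counted in this window.

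PDH1 was the most abundant per length of the 5 genes at 5 CPM or more, in both libraries, and was higher in FMO5-OE T1. On chromosome 3 it spans bases 12448636 to 12451556 (minus strand) in 5 exons. It had 4764 reads in FMO5-OE T1 and 3252 in Col-0, or 378 CPM in FMO5-OE T1 and 291 CPM in Col-0. The fold was 1.3 (1.24 to 1.36) and the log2 ratio of CPM + 1 was 0.38. The ratio was higher still in 8.35% of the 13019 loci, so PDH1 stood towards the upper edge of all genes but not outside it. With total-count CPM the fold was 1.39.

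PDH2, the second proline dehydrogenase, was far scarcer and differed by the same proportion. On chromosome 5 it spans bases 15501126 to 15504269 (plus strand) in 4 exons. It had 195 reads in FMO5-OE T1 and 133 in Col-0, or 15.5 CPM in FMO5-OE T1 and 11.9 CPM in Col-0, a fold of 1.3 (1.04 to 1.63). The coding bases of PDH1 and PDH2 are 73.1% identical and their longest identical run in the alignment is 17 bases, with 0 shared stretches of read length, so reads of the pair could be told apart. Per length, PDH1 exceeded PDH2 by 22.7 times in FMO5-OE T1 and 22.7 times in Col-0. The change in this ratio between libraries was 0.999 (0.792 to 1.26).

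P5CDH, the enzyme that takes the product of both dehydrogenases on to glutamate, lay alongside them. It had 1199 reads in FMO5-OE T1 and 850 in Col-0, or 95 CPM in FMO5-OE T1 and 76.0 CPM in Col-0, a fold of 1.25 (1.14 to 1.37). Per length, PDH1 was at 5.48 times P5CDH in FMO5-OE T1 and 5.28 times in Col-0, and the change in the ratio was 1.04 (0.940 to 1.15). The intervals of both ratios held 1, so no shift in proportion among the 3 breakdown genes was detectable at this depth.

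**Figure D3:**
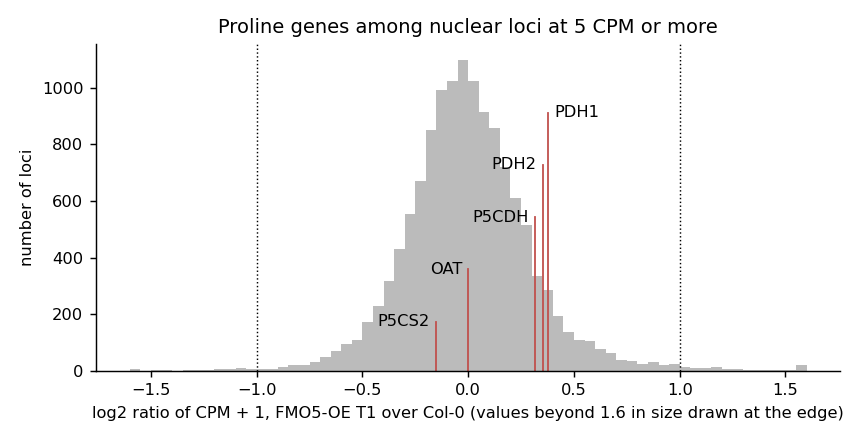
Histogram of the log2 ratio of CPM + 1, FMO5-OE T1 over Col-0, over 13019 nuclear loci at 5 CPM or more (values beyond 1.6 in size at the edge), with the 5 proline genes at that level as vertical lines, whose heights carry no value, and dotted lines at 2-fold. PDH1, PDH2 and P5CDH lie together between 0.32 and 0.38, OAT at 0.00096 and P5CS2 at -0.15.

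P5CDH spans bases 25099003 to 25103312 of chromosome 5 (minus strand) in 16 exons. Its end overlaps that of SRO5 (AT5G62520) on the plus strand over 905 bases, from 25099003 to 25099907, of which 811 are exonic in both genes. In Arabidopsis this pair is known as the source of natural antisense small RNAs that lower P5CDH transcripts under salt stress. SRO5 was named because of this overlap, after the values had been seen. It had 0 reads in FMO5-OE T1 and 1 read in Col-0. Of its model 1, 13.3% or 226 bases lies in stretches absent from its other model and from P5CDH, and whether the low count comes from this or from few transcripts was not tested. The part of P5CDH outside the overlap is 68.7% of its annotated model 1, and reads covered 65.4% of the model in FMO5-OE T1 and 66.1% in Col-0. By the 49-base measure used for SRO5, 74.2% or 1921 bases of P5CDH lay in stretches absent from SRO5. Reads covered 1683 bases in FMO5-OE T1 and 1703 in Col-0. The covered length of P5CDH was thus below that of the part free of SRO5 by both measures. Where in the model the reads lay is not given, and the cause of the uncovered length was not tested.

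**Figure D4:**
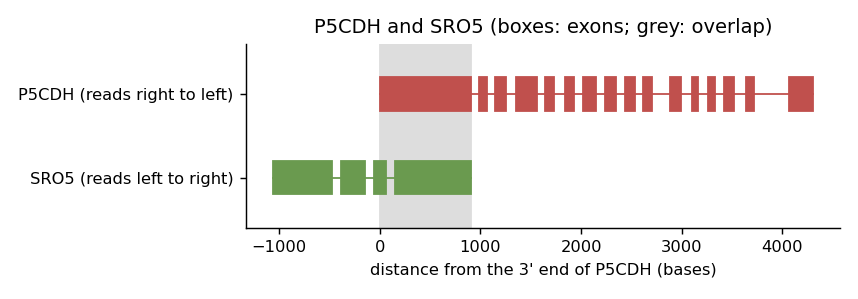
Exons of P5CDH model 1 and SRO5 model 1 to scale, by distance in bases from the 3′ end of P5CDH, with the 905-base overlap in grey. The overlap covers the last part of both genes, and reads were counted for P5CDH over 65.4% of its model in FMO5-OE T1 and 66.1% in Col-0.

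The promoters of the 3 breakdown genes are shown because these genes differed by like proportions between the libraries. Each is the 300 bases before the annotated gene start, read on the gene's strand from the TAIR10.1 genome, at chr3:12451557-12451856 (minus strand) for PDH1, chr5:25103313-25103612 (minus strand) for P5CDH and chr5:15500826-15501125 (plus strand) for PDH2. Capitals mark ACTCAT on either strand, where a match on the other strand reads ATGAGT. In Arabidopsis ACTCAT is known from the PDH1 promoter as an element for induction by proline and low osmolarity that bZIP factors bind.
PDH1: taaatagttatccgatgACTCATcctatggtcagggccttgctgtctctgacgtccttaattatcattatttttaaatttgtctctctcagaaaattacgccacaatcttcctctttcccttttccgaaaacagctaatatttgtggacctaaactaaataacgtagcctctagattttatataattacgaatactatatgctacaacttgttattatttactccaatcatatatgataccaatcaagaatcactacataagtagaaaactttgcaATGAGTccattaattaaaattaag
P5CDH: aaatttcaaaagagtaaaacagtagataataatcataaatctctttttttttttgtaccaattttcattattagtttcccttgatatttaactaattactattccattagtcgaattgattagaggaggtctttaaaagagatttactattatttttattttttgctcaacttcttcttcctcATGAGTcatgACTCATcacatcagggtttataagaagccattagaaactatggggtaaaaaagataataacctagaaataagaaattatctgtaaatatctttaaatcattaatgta
PDH2: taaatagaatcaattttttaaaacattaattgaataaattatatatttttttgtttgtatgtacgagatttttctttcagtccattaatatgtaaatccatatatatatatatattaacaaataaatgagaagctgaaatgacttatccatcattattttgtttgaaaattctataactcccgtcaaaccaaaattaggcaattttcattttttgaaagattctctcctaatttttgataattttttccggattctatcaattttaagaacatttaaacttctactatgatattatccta
PDH1 and P5CDH each held 2 matches and PDH2 held 0. At least 2 matches were found in 1.42% of 27443 protein-coding promoters of this length and at least 1 match in 14.8%. Because the element is known from the PDH1 promoter itself, these shares do not bear on the matches in PDH1. The pair of P5CDH lies within bases 117 to 102 before the start, and those of PDH1 at 283 to 278 and 24 to 19. Among the other members P5CS2 held 1 match and P5CS1, P5CR and OAT 0. The core ACGTG of elements for abscisic acid was found in 1 of the 7 promoters, that of P5CR, against 25.6% of all, the cold and drought element core CCGAC in 2, P5CS2 and P5CR, against 13.9%, and the phosphate response site GNATATNC in 0, against 6.50%. All motifs were sought on both strands, and a match is a description of the letters only.

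OAT, which feeds ornithine into the same mitochondrial intermediate, had nearly equal levels. On chromosome 5 it spans bases 18718417 to 18721744 (minus strand) in 10 exons. It had 568 reads in FMO5-OE T1 and 503 in Col-0, or 45.0 CPM in both libraries, a fold of 1.0 (0.886 to 1.13). PDH1 was at 8.19 times OAT per length in FMO5-OE T1 and 6.32 times in Col-0, and this ratio changed by 1.3 (1.14 to 1.48).

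Between synthesis and breakdown, P5CS2 was at 0.126 of PDH1 per length in FMO5-OE T1 and 0.182 in Col-0. The change in this ratio was 0.692 (0.621 to 0.771), which does not depend on the scaling of the libraries. Per base that reads covered, which leaves out the unread part of each model, P5CS2 was at 0.527 of PDH1 in FMO5-OE T1 and 0.745 in Col-0, a change of 0.707. On a per-length scale of RPKM on TMM totals, PDH1 stood at 202 in FMO5-OE T1 and 156 in Col-0 and P5CDH at 36.9 in FMO5-OE T1 and 29.5 in Col-0. P5CS2 stood at 25.5 in FMO5-OE T1 and 28.3 in Col-0, OAT at 24.7 in both, and PDH2 at 8.90 in FMO5-OE T1 and 6.85 in Col-0. Part of the length of P5CDH and P5CS2 gave no counts, so both may be understated on this scale, which was not tested. Per base covered, PDH1 was likewise the highest and PDH2 the lowest of these 5. The order of P5CDH, P5CS2 and OAT is not clear.

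By likeness of level, the 3 protein-coding loci nearest to PDH1 in log2(CPM + 1) over the 2 libraries were ANNAT1, AT1G62660 and PCK1. ANNAT1, an annexin, was at 374 CPM in FMO5-OE T1 and 302 CPM in Col-0, at a distance of 0.056. AT1G62660 was at 372 CPM in FMO5-OE T1 and 313 CPM in Col-0, and PCK1, the phosphoenolpyruvate carboxykinase of gluconeogenesis, at 347 CPM in FMO5-OE T1 and 293 CPM in Col-0. With 2 libraries such likeness rests on 2 values per gene.

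Genes of glutamate supply and use, the compound at both ends of the pathway, were mostly higher in FMO5-OE T1. Of 8 measured at 1 CPM or more, 7 were above 0 in log2 ratio and 1 below. Over 18060 nuclear loci 49.7% were above 0. The list median was 0.28, against -0.0026 over those loci. At 5 CPM or more, 6 of 7 had an interval above 1, against 17.4% of all loci (with total-count CPM also 6 of 7, against 28.4%), and 0 were at least 2-fold apart. GDH1, a mitochondrial glutamate dehydrogenase, was at 156 CPM in FMO5-OE T1 and 105 CPM in Col-0, a fold of 1.49 (1.39 to 1.61). GDH2, its second subunit, was at 1.85 times its Col-0 level (1.28 to 2.73) on 90 reads in FMO5-OE T1 and 43 in Col-0, and GLU1, the ferredoxin-dependent glutamate synthase of leaves, at 1.43 times (1.10 to 1.87). GDH2 and GLU1 were covered over 20.0% of a model or less, and among the 3 genes of the list with a model covered over at least 50% all 3 had an interval above 1.

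Genes of ornithine, arginine and polyamine synthesis were mostly lower in FMO5-OE T1. Of 14 measured, 12 were below 0 and 2 above (49.7% of all nuclear loci were above), with a median of -0.20. At 5 CPM or more, 9 of 12 had an interval below 1, against 21.0% of all loci, and 0 above, and 0 were at least 2-fold apart. With total-count CPM 3 of 12 had an interval below 1, against 12.5% of all loci. ADC1, arginine decarboxylase, was at 190 CPM in FMO5-OE T1 and 284 CPM in Col-0, a fold of 0.672 (0.637 to 0.708). ARGAH2, an arginase that releases ornithine, was at 0.711 times its Col-0 level (0.622 to 0.812), and NAGK, the regulated kinase of ornithine synthesis, at 0.759 times (0.688 to 0.837).

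Genes of the proline transport list, which also holds the mitochondrial basic amino acid carriers BAC1 and BAC2, lay on both sides of 0. Of 7 measured, 4 were above 0 and 3 below, with a median of 0.03, where 49.7% of nuclear loci were above 0. Of the 3 at 5 CPM or more none had an interval that excludes 1. AAP1, an amino acid permease, was at 55.6 CPM in FMO5-OE T1 and 54.6 CPM in Col-0, AAP6 at 1.07 times its Col-0 level and the mitochondrial basic amino acid carrier BAC1 at 1.13 times. Below 5 CPM, the proline transporter PROT3, named after its values were seen as the largest log2 ratio of the list in size, had 20 reads in FMO5-OE T1 and 38 in Col-0, a fold of 0.466 (0.257 to 0.822).

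Transcription factors tied to proline genes could be read for only a part of the list. The group S1 factors BZIP1, BZIP11, BZIP44 and BZIP53, which bind ACTCAT in Arabidopsis, had 0 reads in both libraries and BZIP2 had 1 read in FMO5-OE T1 and 0 in Col-0. Whether these low counts come from few transcripts or from uncounted reads was not tested, so the levels of these factors are not known. Of the 6 measured factors 4 were above 0 and 2 below (5 above and 1 below with total-count CPM). Over all nuclear loci at 1 CPM or more, 49.7% were above 0. Of the 3 factors at 5 CPM or more, 2 had an interval above 1, against 17.4% of all loci (with total-count CPM also 2 of 3, against 28.4%). NAC055, a stress-related NAC factor, was at 8.88 CPM in FMO5-OE T1 and 4.47 CPM in Col-0, a fold of 1.99 (1.41 to 2.83). PHR1, the phosphate starvation regulator, was at 1.10 times its Col-0 level (1.01 to 1.2), and BZIP9 at 0.998 times (0.911 to 1.09).

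Other enzymes that pass electrons to the mitochondrial chain lay on both sides of 0. Of 4 measured, 2 were above 0 and 2 below, where 49.7% of nuclear loci were above 0. With total-count CPM and with equal nuclear totals the split was 3 and 1. At 5 CPM or more, 2 of 3 had an interval above 1, against 17.4% of all loci (with total-count CPM also 2 of 3, against 28.4%). ETFQO, the oxidoreductase that passes electrons on to ubiquinone, was at 1.24 times its Col-0 level (1.10 to 1.41), the isovaleryl-CoA dehydrogenase IVDH at 1.15 times (1.03 to 1.28) and ETFALPHA at 0.948 times (0.797 to 1.13). Genes that use or release proline had a median of 0.09, with 5 of 7 above 0, against 49.7% of nuclear loci. Of 5 at 5 CPM or more, 1 had an interval above 1, near the 17.4% of all loci. With total-count CPM it was 3 of 5, against 28.4%, and with equal nuclear totals 2 of 5, against 27.4%. Among these, prolidase, which frees proline from dipeptides, was at 1.14 times its Col-0 level (1.0 to 1.3), an interval barely above 1, and the prolyl hydroxylases P4H1 and P4H2 at 1.09 times and 0.911 times.

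Osmotic and abscisic acid response genes, which are known to be induced along with P5CS1 under stress, included several genes lower in FMO5-OE T1 and, among those at 5 CPM or more, none with an interval above 1. Of 8 measured, 3 were above 0 and 5 below (4 and 4 with total-count CPM), where 49.7% of nuclear loci were above 0. At 5 CPM or more, 4 of 6 had an interval below 1, against 21.0% of all loci. With total-count CPM it was 3 of 6, against 12.5%. COR15A was at 5.15 CPM in FMO5-OE T1 and 11.1 CPM in Col-0, a fold of 0.465 (0.339 to 0.632) that falls short of the 2-fold rule on CPM + 1. Its 65 reads in FMO5-OE T1 covered 17.5% of the listed model and its 124 reads in Col-0 covered 23.7%. RD29A was at 0.619 times its Col-0 level (0.557 to 0.686) and KIN1, which has a close copy in KIN2, at 0.603 times (0.484 to 0.750). The 3 genes above 0 went the other way, with intervals that held 1. They were NCED3 at 1.14 times (0.917 to 1.42) and, under 5 CPM, LEA4-5 at 1.56 times (0.969 to 2.55) and RAB18 at 1.18 times (0.575 to 2.48).

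**Figure D5:**
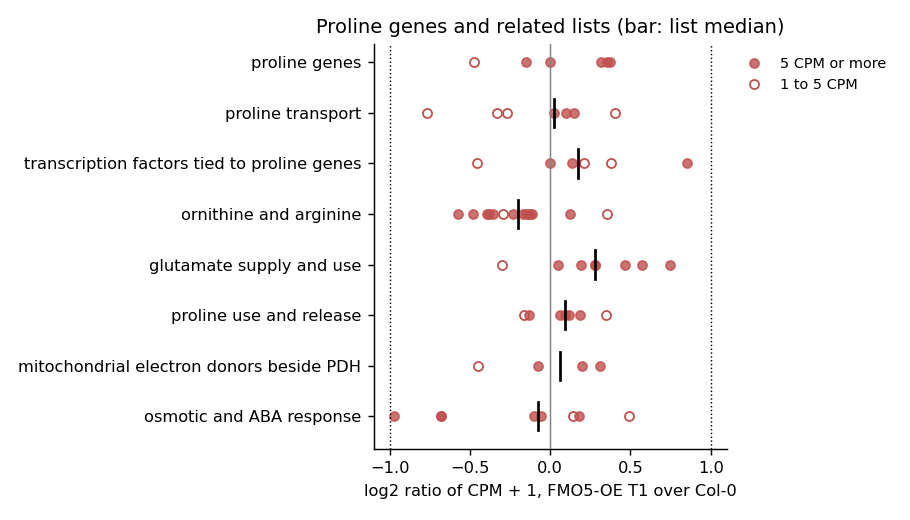
Log2 ratio of CPM + 1, FMO5-OE T1 over Col-0, of each gene at 1 CPM or more by list, filled at 5 CPM or more and open below, with a black bar at the median of the 7 related lists and dotted lines at 2-fold. The glutamate list centres on 0.28 and the ornithine and arginine list on -0.20, and no gene reaches a dotted line.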

How the data were processed

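Per the file headers, each library's file gives, for every transcript model with reads, a count of unique reads, a length, a percent covered and an RPKM value. TAIR10 is the build named in the submitters' processing notes. The aligner, counter and strand setting are not named there. The RPKM column deposited by the authors equals count over length and total within rounding for 100% of models. Models without reads are not listed and were taken as 0.

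Counts were summed over the models of a locus and scaled with TMM factors of edgeR 4.0.16 (1.03 for FMO5-OE T1, 0.967 for Col-0). Log2 ratios use a pseudocount of 1 CPM, lists a minimum of 1 CPM and other counts 5 CPM in the higher library. Exact intervals were checked only on simulated Poisson counts with known scaling, the model they assume, so the check does not bear on spread between plants. Alternatives were DESeq2 1.42.0 size factors, total counts, equal nuclear totals, other pseudocounts and minimums, the model with most reads and RPKM. Python 3.11.15, R 4.3.3, numpy 2.4.6, pandas 2.3.3, scipy 1.17.1, matplotlib 3.10.9 and Biopython 1.88 were used. Positions, models and promoters came from RefSeq's TAIR10.1 annotation and genome, in which all 7 members were found. Protein sequences were not used here, so pairs were compared by coding bases. Genes named were the 7 members, the 3 genes of each related list with the largest absolute log2 ratio among those reaching 5 CPM, plus any at least 2-fold apart, the 3 loci nearest to PDH1, and FMO GS-OX5. The members and lists were chosen with earlier results of these data known. SRO5 and the checks on covered length were added, and PROT3, NCED3, LEA4-5, RAB18, the S1 bZIP factors and seed genes named, after the values were seen.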

Additional observations from a re-analysis of the deposited data

How the results depend on the processing

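No paired analysis was possible because each genotype had a single library. Of 49 values of the 7 genes under alternatives, 46 stayed within their counting interval, a count that was partly fixed in advance. For genes with 1 listed model, the model with most reads gives the main value by construction. The interval of P5CS1 is too wide for an alternative to leave. The log2 ratio of PDH1 was 0.47 with total-count CPM, 0.46 with equal nuclear totals and 0.47 with deposited RPKM. No gene changed direction, with ranges of 0.28 to 0.44 for PDH2, 0.30 to 0.41 for P5CDH and -0.15 to -0.052 for P5CS2. The interval of P5CS2 held 1 with total-count CPM, equal nuclear totals and RPKM. Ratios between the genes stayed within their intervals in 18 of 18 cases, a count that says little. Where both genes have 1 listed model, the model with most reads gives the same ratio by construction, and RPKM the same up to rounding. Intervals of the P5CS1 ratios, such as 0.402 to 26.0 against P5CS2, are too wide for an alternative to leave. The median of ornithine and arginine was -0.11 with total-count CPM and negative under every setting tried, and that of glutamate lay between 0.27 and 0.37. The osmotic median was 0.015 with total-count CPM, 0.0085 with equal nuclear totals and -0.39 at a minimum of 5 CPM, against -0.077, and that of the proline transport list was -0.0092 with no minimum, against 0.025. The root marker median ranged from -0.048 to 0.13. The seed list, with 1 measured gene, was not included.

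Loci at least 2-fold higher and lower in FMO5-OE T1 numbered 96 and 45. They were 42 and 17 on a pseudocount of 5, 56 and 21 among loci reaching 20 CPM, 440 and 294 with a 1.5-fold rule and 16 and 3 with a 3-fold rule, and 159 were higher with RPKM. With total-count CPM they were 136 and 31, or 81.4% higher against 68.1%. Intervals above and below 1 numbered 2266 and 2736 with TMM, 3703 and 1629 with total-count CPM and 3601 and 1704 with equal nuclear totals. These scalings raise the fold of every gene by 1 factor, though log2 ratios of CPM + 1 shift less for scarce genes, and the median of all loci was 0.081 with total-count CPM and -0.013 with TMM. Apart from scalings and minimums, the cause was not tested. P5CS1 and P5CR had too few counted reads for a comparison.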
